A study of Mus musculus with 9 samples.

Results

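The mitochondrial ribosomal protein genes of the mouse cochlea were examined in untreated and base-editor treated animals homozygous for a nonsense variant of MPZL2. Members were the genes whose symbol begins with Mrpl or Mrps followed by a number and at most one letter, with a mean of at least 1 TPM over the 6 libraries of the second deposited table. TPM corrects an abundance for the length of the transcript and sums to about the same total in every library. All 78 genes with such a symbol reached that mean, of 25579 gene symbols in the table, and all 78 also passed the filter of the test. The lowest mean was that of Mrps34 at 3.65 TPM, followed by Mrpl22 at 6.40 TPM, and 0 genes with such a symbol lay under the threshold. The mean was taken over both groups together, and it is used here as a description only.

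Mitochondria carry their own ribosome, which translates the few messenger RNAs of the mitochondrial genome into core subunits of the respiratory chain and of ATP synthase. Its RNAs come from the mitochondrial genome, but every one of its proteins is encoded in the nucleus, made in the cytosol and imported. Many of the proteins have counterparts in bacterial ribosomes, and others are found only in mitochondria. Hair cells and the stria vascularis depend on respiration, and variants in several genes of mitochondrial translation are known from inherited hearing loss.

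RNA came from the membranous labyrinth, the soft tissue inside the bony cochlea, of mice at postnatal day 28. The labels gave 9 libraries from biological replicates, 3 in each of 3 groups. These were Mpzl2 WT mice, untreated hMPZL2Q74X/Q74X mice (homozygous below), and hMPZL2Q74X/Q74X mice that received, on postnatal day 2 and by way of the round window, AAV-ie-ABE8eWQ-SpRY:sgRNA3 (treated below). That agent is an adeno-associated virus that carries an adenine base editor, built on a Cas9 variant with relaxed target requirements, and a guide RNA. The homozygous and treated groups share the MPZL2 genotype and the age. A group given a vector without the editor was not analysed here, so editor, guide and virus cannot be told apart. Per the design text, the study looked for pathways that underlie damage in cochleae with the variant.

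Several features of the libraries bear on the values below. Mpzl2 itself was at 17.4, 24.01 and 13.1 TPM in homozygous libraries 1 to 3 and at 5.64, 5.62 and 16.3 TPM in treated libraries 1 to 3 (limma adjusted p = 0.335), which does not measure editing, and the values may miss reads from the humanised allele. Treated libraries 1 and 2 were close to identical, with a spread of 0.285 (SD of the log2 ratio over 9008 genes at 5 to 50 TPM) against 0.546 to 0.645 between homozygous libraries and 1.14 between treated 1 and 3. They were counted as 1 sample through their mean, so the treated group had 2 samples. Markers of cochlear cells were detected in all libraries, with 0 of 5 hair cell and 0 of 5 stria and fibrocyte genes at 0 in any library, but some differed between the groups. Of the 5 stria and fibrocyte genes 0 were called, and their directions were mixed. Coch and Otor had log2 fold changes of -0.87 and -0.59, and Kcne1, Kcnq1 and Lrp2 of 0.60, 0.73 and 0.84. Hair cell markers summed to 45.8 to 97.5 TPM in homozygous and 119 to 251 TPM in treated libraries, and 4 of 5 were higher without overlap, though 0 passed. Of 4 supporting cell markers 2 rose (Lfng and Otog), while Gjb2 and Sox2 were not called, each with a log2 fold change of -0.25. Of 3 spiral ganglion markers 1 fell (Nefl). The others were not called, with log2 fold changes of -0.82 for Tubb3 and 0.78 for Slc17a7. Slc17a7 was at 140 to 183 TPM in homozygous libraries and at 459, 461 and 157 TPM in treated 1 to 3. Of 6 forebrain neuron markers, the summed level was 58.5 to 79.8 TPM in homozygous libraries, 911 and 883 TPM in treated 1 and 2, and 42.2 TPM in treated 3, and 0 of the 4 that passed the filter were called. Tbr1 was at 0, 0 and 0.362 TPM in homozygous libraries, at 27.3 and 26.4 TPM in treated 1 and 2 and at 0 in treated 3, and Neurod6 was above 0 only in treated 1 and 2. Camk2a was at 0.471 to 0.554 TPM in homozygous libraries and at 745, 722 and 8.13 TPM in treated 1 to 3. Slc17a6, which made up most of the homozygous sum, was lower in every treated library, at 54.5, 32.6 and 69.04 TPM against 12.7, 12.01 and 18.6 TPM. Macrophage markers, 3 of 4 of which rose, summed to 49.97 to 75.7 TPM in homozygous and 494 to 865 TPM in treated libraries, and lymphocyte markers, 3 of 4 of which rose, to 2.98 to 8.42 and 49.9 to 82.4 TPM. Bone markers, 1 of 4 of which fell, summed to 226 to 895 TPM in homozygous and 82.5 to 94.01 TPM in treated libraries. Schwann cell markers, 0 of 3 of which were called, summed to 3511 to 6860 TPM in homozygous and 2745 to 3286 TPM in treated libraries. The part of these cell types in the results on ribosomal protein genes was not tested, and in bulk RNA fewer cells of a type and less RNA per cell cannot be told apart.

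The mitochondrial ribosomal protein genes did not move as one block after treatment. In the fit over all 17102 tested genes, 2 of the 78 members fell and 0 rose (limma on log2(TPM + 1), two-sided, Benjamini-Hochberg adjusted p under 0.05). Over all tested genes 0.965% fell and 3.44% rose. An unadjusted p under 0.05 was reached by 11 members as lower and 7 as higher, against 7.92% and 18.8% of all genes. These counts were 14 and 1 under median-of-ratios scaling, and 13 and 3 when mitochondrially encoded genes were left out of the TPM total. Over all 17102 tested genes they were 1354 lower and 3220 higher as reported. Under median-of-ratios scaling they were 2180 and 2282 over all genes, and without mitochondrially encoded genes 1894 and 2563. With either scaling the higher count was thus smaller, both among the members and over all genes. The median log2 fold change of the members was -0.21, with a range of -2.05 to 0.95, beside a median of 0.20 over all tested genes. Adding 1 TPM before taking logs makes the fold changes of low genes smaller than they are in TPM. A log2 fold change under 0 was found for 47 members, or 60.3% of them, against 39% of all genes.

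The treated samples differed from each other in these genes. In the mean of treated 1 and 2, the median log2 difference from the homozygous mean was -0.35 over the members and 0.29 over all tested genes. In treated 3 it was 0.03 over the members and 0.09 over all genes. Both libraries of treated 1 and 2 lay below all 3 homozygous libraries for 42 members (25.2% of all genes did) and above them for 18 (48.1% of all genes). Treated 3 lay below all homozygous libraries for 23 members (32.8% of all genes) and above them for 26 (41.4%). The same 3 homozygous libraries serve both comparisons. An absolute log2 difference over 1 was seen for 21 members in treated 1 and 2 and for 11 in treated 3, or 26.9% and 14.1%, against 31.1% and 21.4% of all genes.

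**Figure D1:**
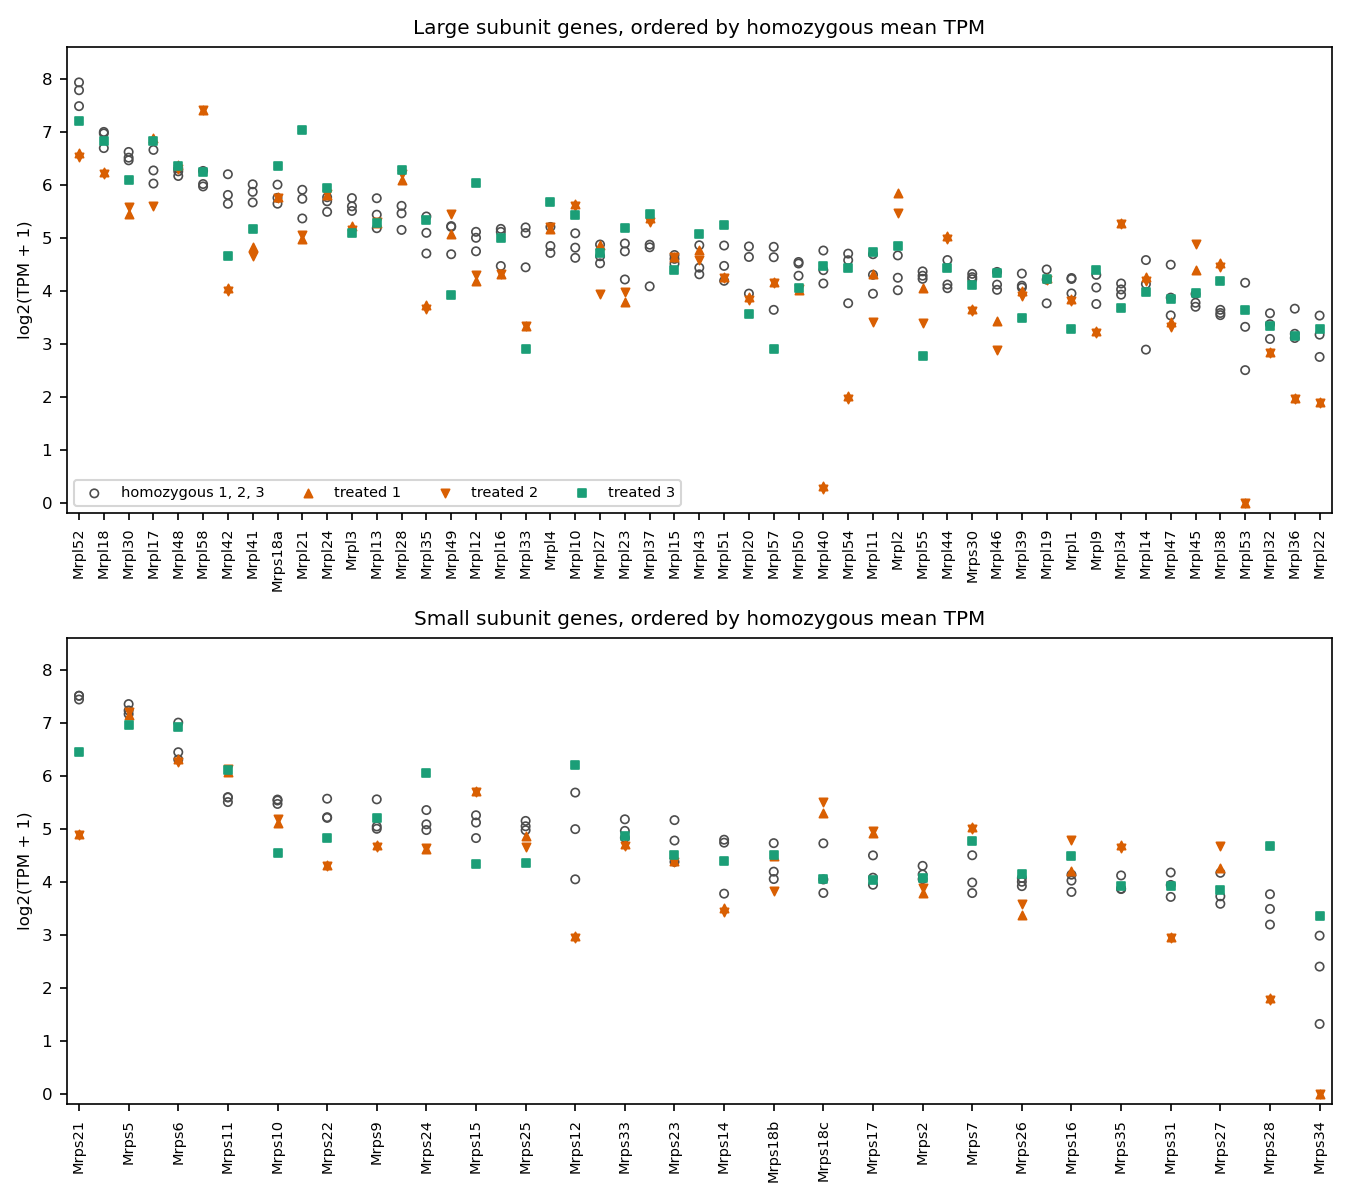
Level of each member as log2(TPM + 1) in the 6 libraries, for 51 large subunit genes (top) and 26 small subunit genes (bottom), ordered by homozygous mean; Mrps36 is not drawn. Open circles are homozygous libraries, orange triangles treated 1 and 2, green squares treated 3, and the orange symbols lie at or near 0 for Mrpl40, Mrpl53 and Mrps34.

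The summed level of all 78 genes shows how far the whole set was displaced. It was 2825, 2876 and 2682 TPM in homozygous libraries 1 to 3, a mean of 2794 ± 101 (SD, n = 3). Treated libraries 1, 2 and 3 had 2368, 2268 and 2815 TPM. Treated 1 and 2 thus lay below every homozygous library, while treated 3 lay between them. The 51 large subunit genes summed to 1692 to 1849 TPM in homozygous libraries and to 1595, 1481 and 1865 TPM in treated 1 to 3. The 26 small subunit genes summed to 952 to 1032 TPM and to 769, 783 and 936 TPM. The ratio of large to small subunit sums was 1.77 to 1.94 in homozygous and 1.89 to 2.07 in treated libraries, and these ranges overlapped.

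Beside this, the messenger RNAs that the mitochondrial ribosome translates took a smaller share of the RNA. The 13 mitochondrially encoded genes took 13.6%, 10.7% and 13.4% of TPM in homozygous libraries 1 to 3 and 2.17%, 2.22% and 6.16% in treated libraries 1 to 3. All treated libraries lay below all homozygous ones. Proteins of the cytosolic ribosome summed to 20683, 24012 and 20670 TPM in homozygous libraries and to 19117, 19408 and 28463 TPM in treated libraries 1 to 3. Treated 3 was above every homozygous library there, and treated 1 and 2 were below them.

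**Figure D2:**
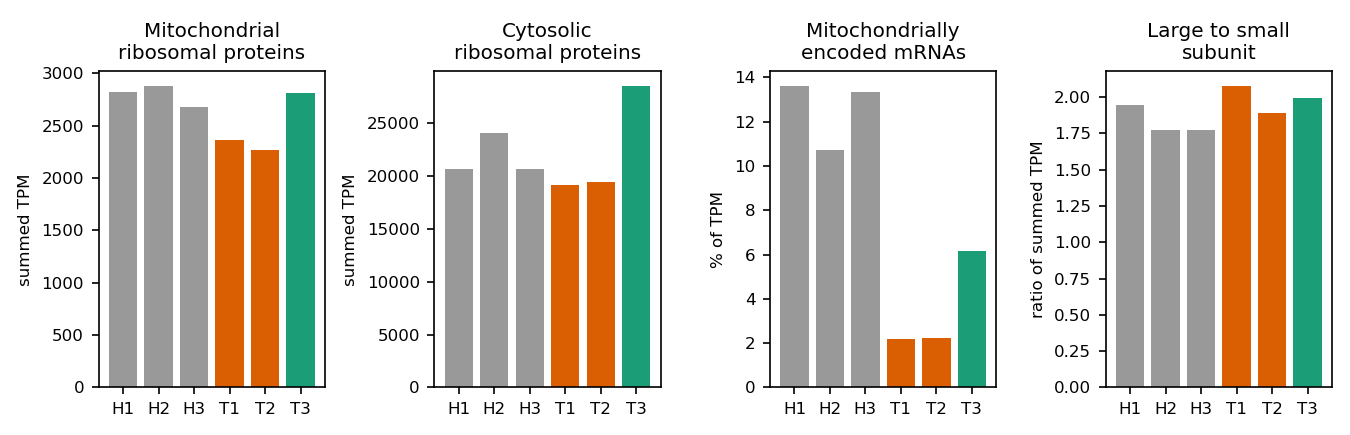
Bars give, for homozygous libraries 1 to 3 (H1 to H3, grey), treated 1 and 2 (orange) and treated 3 (green), the summed TPM of mitochondrial and cytosolic ribosomal protein genes, the percent of TPM in mitochondrially encoded mRNAs, and the ratio of large to small subunit sums. The mitochondrial ribosomal protein sum is lowest in treated 1 and 2, and the mitochondrially encoded share is lower in all treated libraries.

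Levels spread widely within the set although its proteins enter one particle. Mean TPM over the 6 libraries ran from 3.65 for Mrps34 to 162 for Mrpl52, with a median of 23.1. In the large subunit the highest means were those of Mrpl52, Mrpl58, Mrpl18 and Mrpl17, and in the small subunit those of Mrps5, Mrps21, Mrps6 and Mrps11. The homozygous replicates differed by a median of 18.8% (SD as a percent of the mean), and 41 of 78 members were under 20%. Mrps34 had the largest spread, 64.1%.

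Mrpl42 and Mrpl33, both of the large subunit, were the members that fell. Mrpl42 encodes a protein found only in mitochondria. It was at 72.5, 55.03 and 48.9 TPM in homozygous libraries 1 to 3 and at 15.7, 14.9 and 24.1 TPM in treated 1 to 3, and the groups did not overlap. This gave a log2 fold change of -1.55 (SE 0.28, n = 3 and 2 samples), and limma's adjusted p was 0.0400. Mrpl33 is the counterpart of bacterial protein L33. It was at 35.6, 33.04 and 20.7 TPM in homozygous and at 9.10, 9.03 and 6.44 TPM in treated libraries, again without overlap and with the lowest value in treated 3. The log2 fold change was -1.80 (SE 0.34), and limma's adjusted p was 0.0418. Both calls were lost without any one of the homozygous libraries, with adjusted p of 0.0910 to 0.189 for Mrpl42 and 0.105 to 0.206 for Mrpl33, and both were also lost with no filter on low values and without the mean-variance trend. Mrpl42 shares 429 bases at 96.3% identity with a processed pseudogene. Its reads could be split, but that pseudogene has no row in the table, so these values cannot show it. Mrpl33 shares 179 identical bases with a noncoding transcript, Gm43809, which was at 0 to 0.544 TPM over the 6 libraries.

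**Figure D3:**
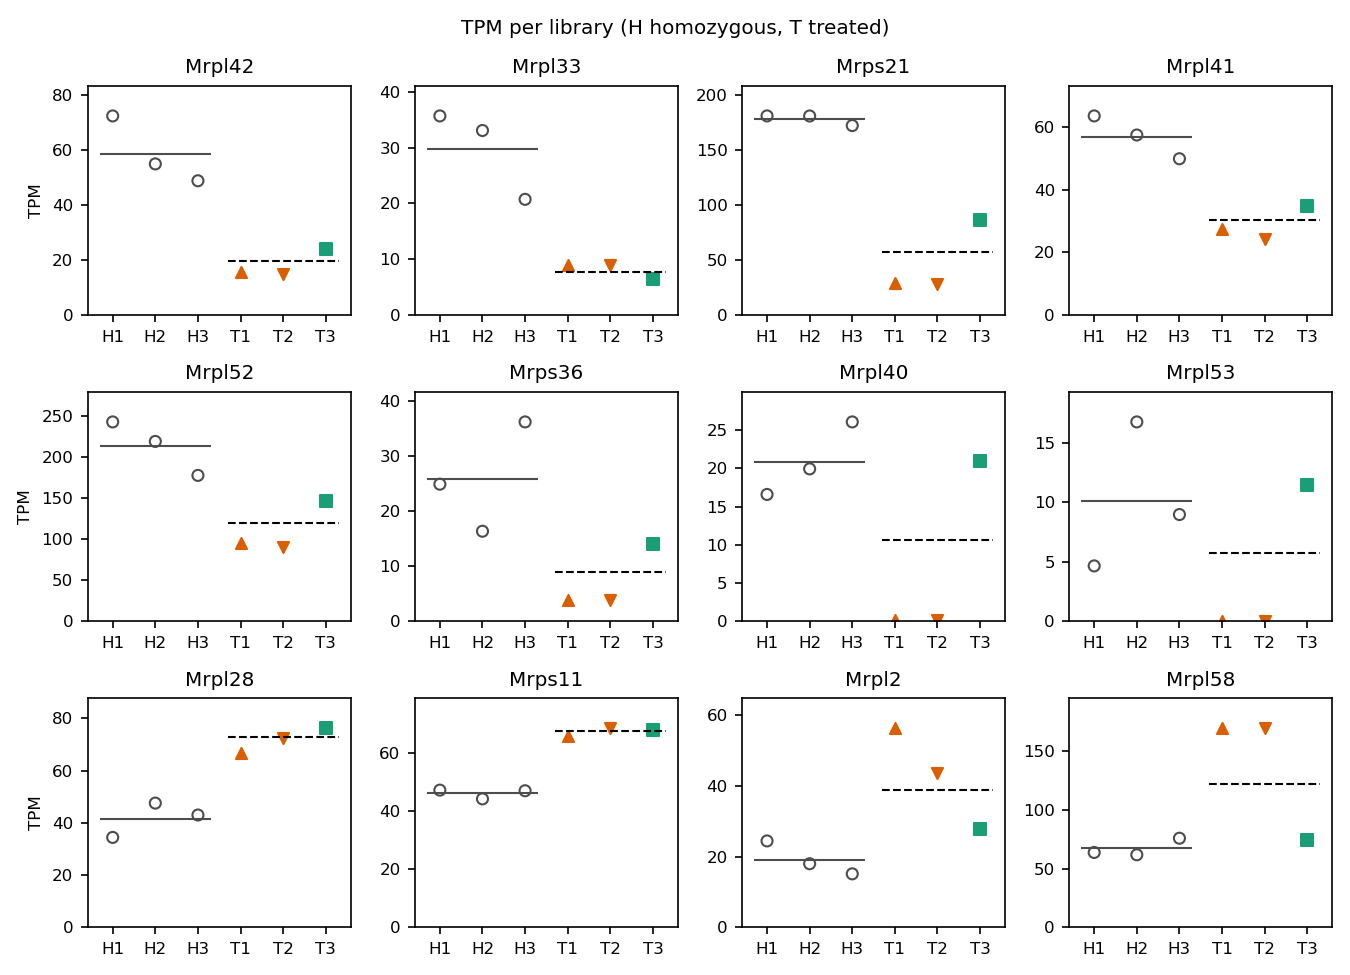
TPM of 12 members in homozygous (H1 to H3, open circles) and treated libraries (T1 and T2 orange, T3 green); solid lines are homozygous means and dashed lines the means of the 2 treated samples. Mrpl42 and Mrpl33 are low in all 3 treated libraries, and Mrpl40 and Mrpl53 only in T1 and T2.

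Promoter sequence was examined as a property that the choice of members did not use. Of the 78 members, 69 matched the RefSeq promoter table (build GRCm38.p6, 250 bases before to 50 after the start); Mrpl13, Mrpl15, Mrpl19, Mrpl38, Mrpl4, Mrpl54, Mrps28, Mrps34 and Mrps35 did not. The ETS core CCGGAAG, on either strand, was found in 26 of 69 members (37.7%) and in 17.5% of the 12521 tested genes with a promoter. The NRF1 palindrome, whose letters are the capitals in Mrpl9 below, was in 3 members (4.35%) and 2.00% of genes, and the YY1 motif, searched on both strands, in 5 (7.25%) and 2.01%. TGACGTCA, the cyclic AMP response element, was in 2 members and 3.25% of genes, and TATAAA, on either strand, in 7.25% and 9.40%. A match is a description of letters and not a bound site. The 100 bases before the start are shown for both members that fell, for Mrpl53, which was listed at 0 in treated 1 and 2, for Mrpl58, which was highest there, and for Mrpl43 and Mrpl9 as carriers of repeated ETS letters and of the NRF1 palindrome. Capitals mark those motif letters.
Mrpl42 (chr10:95501950-95502049, minus strand): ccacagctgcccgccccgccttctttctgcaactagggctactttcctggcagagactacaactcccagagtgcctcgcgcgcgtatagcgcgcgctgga
Mrpl33 (chr5:31613851-31613950, plus strand): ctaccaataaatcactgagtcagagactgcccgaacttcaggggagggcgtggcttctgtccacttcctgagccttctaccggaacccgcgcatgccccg
Mrpl53 (chr6:83109008-83109107, plus strand): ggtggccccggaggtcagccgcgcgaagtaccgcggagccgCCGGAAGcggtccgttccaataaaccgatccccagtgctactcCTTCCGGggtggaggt
Mrpl58 (chr11:115403652-115403751, plus strand): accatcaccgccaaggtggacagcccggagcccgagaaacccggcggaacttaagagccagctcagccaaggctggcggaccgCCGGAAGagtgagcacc
Mrpl43 (chr19:45006443-45006542, minus strand): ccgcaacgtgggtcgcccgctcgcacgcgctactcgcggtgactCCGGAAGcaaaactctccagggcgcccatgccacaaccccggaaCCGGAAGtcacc
Mrpl9 (chr3:94443236-94443335, plus strand): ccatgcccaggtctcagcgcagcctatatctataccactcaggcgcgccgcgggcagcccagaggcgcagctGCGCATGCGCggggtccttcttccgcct

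Neither Mrpl42 nor Mrpl33 has these letters in the 100 bases shown, but in the full 300-base window Mrpl33 has the ETS core, as Mrpl53 and Mrpl58 do, and Mrpl42 has none of the 5 motifs. Mrpl43, with a pair of ETS cores, had a log2 fold change of 0.34, and Mrpl9, with the NRF1 palindrome, one of -0.22 (limma adjusted p = 0.477 and 0.765). No relation of motif and fold change is drawn from these few genes.

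Without overlap between groups, 17 members were lower in all treated libraries and 10 were higher. Over all tested genes these shares were 14.8% and 28%. The member counts were 22 and 7 under median-of-ratios scaling, and 23 and 7 without mitochondrially encoded genes. The shares over all genes were not counted under these scalings, and the members named below are those in TPM as deposited. The 17 lower members were 12 large and 4 small subunit genes and Mrps36. Mrps21, the counterpart of bacterial S21, was at 181, 181 and 172 TPM in homozygous and at 28.99, 28.4 and 86.2 TPM in treated libraries, and it was the most abundant small subunit transcript of the homozygous tissue. Its 3 homozygous libraries were tightly grouped and treated 3 lay between them and treated 1 and 2. Its log2 fold change of -1.82 did not pass (limma adjusted p = 0.0599), and it shares 264 bases at 97.3% identity with a processed pseudogene that has no row in the table. Mrpl52, the member with the highest level, was at 243, 219 and 178 TPM in homozygous and at 95.5, 90.5 and 146 TPM in treated libraries (log2 fold change -0.85, limma adjusted p = 0.0960). Mrpl41, a mitochondria-specific protein, was at 63.4, 57.3 and 49.8 TPM and at 27.5, 24.3 and 34.8 TPM (log2 fold change -0.89, limma adjusted p = 0.0721). In both genes treated 1 and 2 were the lowest libraries and treated 3 lay between them and the homozygous ones.

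Mrps36 carries the name of a ribosomal protein but is now described as a part of the 2-oxoglutarate dehydrogenase complex. It was at 24.9, 16.4 and 36.2 TPM in homozygous and at 3.88, 3.82 and 14.1 TPM in treated libraries (log2 fold change -1.58, limma adjusted p = 0.139). The homozygous values spread more than 2-fold, and the gap between Mrps36 in homozygous 2 and treated 3 was small. Mrps36 has processed pseudogenes of up to 99.3% identity, which have no rows in the table.

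Among the 10 members that were higher in every treated library, Mrpl28 had the smallest p. This counterpart of bacterial L28 was at 34.5, 47.6 and 43.03 TPM in homozygous and at 66.8, 72.7 and 76.4 TPM in treated libraries (log2 fold change 0.81, limma adjusted p = 0.0771). All 3 treated values lay close together. Mrps11, a small subunit protein with a bacterial counterpart, was at 47.3, 44.3 and 47.1 TPM and at 65.9, 68.8 and 67.97 TPM (log2 fold change 0.54, limma adjusted p = 0.117), with tight values in both groups. Mrpl2, a counterpart of the bacterial protein close to the peptidyl transferase centre, was at 24.4, 17.97 and 15.1 TPM and at 56.3, 43.5 and 27.6 TPM (log2 fold change 0.95, limma adjusted p = 0.146). Mrpl2 had the largest positive log2 fold change of the members. Mrpl37 and Mrpl38, both specific to mitochondria, had log2 fold changes of 0.80 and 0.75 (limma adjusted p = 0.159 and 0.153).

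A few members were almost absent from treated 1 and 2 and ordinary in treated 3. Mrpl40 was at 16.6, 19.9 and 26.1 TPM in homozygous libraries, at 0.248 and 0.198 TPM in treated 1 and 2, and at 20.98 TPM in treated 3. Mrpl53 was at 4.66, 16.8 and 8.98 TPM in homozygous libraries, was listed at 0 in treated 1 and 2, and was at 11.4 TPM in treated 3. Mrps34 was at 4.27, 6.90 and 1.49 TPM, listed at 0 in treated 1 and 2, and at 9.22 TPM in treated 3, the highest value of the 6. Treated 3 lay within the homozygous range for Mrpl40 and Mrpl53 and above it for Mrps34, and none of these 3 genes passed (limma adjusted p = 0.280, 0.406 and 0.760). In the mean of treated 1 and 2, the log2 differences of Mrpl40, Mrpl53 and Mrps34 from the homozygous mean were -4.14, -3.32 and -2.23. These genes were picked for their low values there, so no test on treated 1 and 2 alone is given. They were 3 of 78 members under 0.5 TPM in treated 1 and 2 with at least 1 TPM in each of the other libraries, against 1.43% of all tested genes. The reverse pattern, under 0.5 TPM in treated 3 with at least 1 TPM in the other libraries, held for 0 members and for 0.889% of all tested genes, so a count of 0 is near the background.

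Overlapping transcripts bear on some of these values. Mrpl53 shares 695 identical bases with Gm42688, annotated as a transcript subject to nonsense-mediated decay, which was at 1.25 TPM or less in homozygous libraries, at 5.91 and 6.04 TPM in treated 1 and 2 and at 0.899 TPM in treated 3. Gm42688 was thus highest in the libraries where Mrpl53 was listed at 0. Mrps34 overlaps Mapk8ip3 on the opposite strand over 504 bases, and Mapk8ip3 was at 253, 187 and 275 TPM in homozygous and at 298, 283 and 176 TPM in treated libraries. The part of read assignment between overlapping transcripts in these values was not tested. In all, 36 of 78 members shared at least 150 bases at 95% identity or more with a transcript of another gene of GENCODE M21, and for 20 of them that gene had a row in the table. Both strands were counted although the RNA kit was stranded, and some members, such as Mrpl10 and Mrps25, matched only on the opposite strand. Mrps14 and Mrps26 each matched many genes. The same share over all genes was not counted, so the number does not set the members apart.

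Members also differed in how well treated 1 and 2 matched. Over the members the median absolute log2 ratio of these libraries was 0.0563, but 7 members exceeded 0.5. Mrpl17 was at 117 and 47.4 TPM, Mrpl27 at 28.2 and 14.4 TPM and Mrpl11 at 19 and 9.65 TPM in treated 1 and 2. Over all tested genes 4.59% exceeded 0.5, and between homozygous libraries 12 to 29 of the 78 members did.

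Proteins that serve the factor-binding region of the large subunit showed no shared direction. Mrpl10 and Mrpl12 form the stalk that recruits translation factors, and Mrpl11 lies at its base. Mrpl10 was at 23.6, 32.9 and 27.1 TPM in homozygous and at 48.6, 47.6 and 41.8 TPM in treated libraries (log2 fold change 0.68, limma adjusted p = 0.131), without overlap. Mrpl12 was at 30.98, 33.6 and 25.8 TPM and at 17.2, 18.6 and 64.7 TPM, so that treated 1 and 2 were below and treated 3 above all homozygous libraries (log2 fold change 0.19, limma adjusted p = 0.840). Mrpl11 was at 24.8, 14.4 and 18.7 TPM and at 18.99, 9.65 and 25.6 TPM, with overlapping groups (log2 fold change 0.02, limma adjusted p = 0.973). The signs of Mrpl11 and Mrpl12 turned negative under median-of-ratios scaling.

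Mrps12, the counterpart of the bacterial protein that guards decoding accuracy, was spread widely. It was at 30.8, 50.3 and 15.5 TPM in homozygous libraries, at 6.88 and 6.69 TPM in treated 1 and 2 and at 72.5 TPM in treated 3. The treated libraries were thus the lowest and the highest of the 6 (log2 fold change -0.33, limma adjusted p = 0.850). Mrpl58, a peptidyl-tRNA hydrolase that frees stalled ribosomes, was at 63.6, 61.6 and 75.7 TPM in homozygous libraries, at 169 and 169 TPM in treated 1 and 2 and at 74.3 TPM in treated 3. Only treated 1 and 2 stood above the homozygous range of Mrpl58 (log2 fold change 0.74, limma adjusted p = 0.225).

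Some members are known disease genes, of which Mrps7, Mrps2 and Mrpl50 have been linked to hearing loss in people. Mrps7 was at 14.8, 21.6 and 12.8 TPM in homozygous and at 31.9, 30.7 and 26.1 TPM in treated libraries, higher in each treated library (log2 fold change 0.80, limma adjusted p = 0.160). Mrps2 was at 15.5, 16.6 and 18.7 TPM and at 12.9, 13.7 and 15.9 TPM, with overlapping groups (log2 fold change -0.20, limma adjusted p = 0.664). Mrpl50 was at 18.5, 22.3 and 21.8 TPM and at 15.1, 15.3 and 15.6 TPM, lower in each treated library (log2 fold change -0.41, limma adjusted p = 0.343). The directions of these genes therefore differed, and none of them passed. Mrps22, Mrpl3 and Mrpl44, linked to other mitochondrial diseases, had log2 fold changes of -0.76, -0.48 and 0.47 (limma adjusted p = 0.131, 0.179 and 0.373).

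The members were also divided by subunit and by evolutionary origin. The median log2 fold change was -0.22 over the 51 large subunit genes and -0.19 over the 26 small subunit genes. It was -0.13 over 46 genes with a bacterial counterpart and -0.39 over 31 genes specific to mitochondria. In treated 1 and 2 alone the medians of these classes were -0.37 and -0.29, the opposite order. Differences between these classes were not tested. Mrps18a and Mrps30, named for the small subunit but placed in the large one, had log2 fold changes of 0.26 and -0.39 (limma adjusted p = 0.535 and 0.411).

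Transcript length was set beside the differences. The members had a median transcript length of 1052 bases, against 2218 bases over the 14511 tested genes with a length in GENCODE M21. Across the 78 members the rank correlation of length with the log2 difference from the homozygous mean was 0.25 in treated 1, 0.35 in treated 2 and 0.10 in treated 3. It was -0.21, -0.18 and 0.31 in homozygous libraries 1 to 3, each of which is itself part of that mean. Over the 14511 tested genes with a length it was 0.07, 0.05 and -0.06 in treated 1 to 3. In homozygous libraries 1 to 3 it was -0.005, -0.06 and 0.08 over those genes. These points are genes of the same libraries and not independent replicates.

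Other genes of mitochondrial gene expression were read from the same fit. Of 17 mitochondrial aminoacyl-tRNA synthetases, which charge the tRNAs for this ribosome, 2 rose and 0 fell. Vars2, the valyl-tRNA synthetase, went from 19.6, 15.1 and 16.5 TPM to 71.2, 99.3 and 97.3 TPM (log2 fold change 2.35, limma adjusted p = 0.00684). Cars2, the cysteinyl-tRNA synthetase, went from 22.3, 22.8 and 28.3 TPM to 66.9, 76.7 and 72.7 TPM (log2 fold change 1.53, limma adjusted p = 0.0206). All treated libraries were above all homozygous ones for both Vars2 and Cars2. The median log2 fold change of this list was 0.40.

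The remaining lists of the translation pathway had 0 calls in either direction. This held for 13 translation factors (median log2 fold change 0.07), 25 genes of ribosome assembly and rRNA modification (0.08), 15 genes of mitochondrial transcription and RNA handling (0.10) and 10 regulators of mitochondrial biogenesis (0.02). It also held for the 5 ribosomal proteins with other symbols, Dap3, Ptcd3, Chchd1, Aurkaip1 and Gadd45gip1 (-0.01). At an unadjusted limma p under 0.05 these lists had 0, 0, 2, 2 and 0 lower genes. They had 0, 2, 1, 1 and 0 higher genes. Over all tested genes 7.92% were lower and 18.8% higher at that threshold. Tufm, the elongation factor that brings charged tRNAs to the ribosome, was at 40.6, 64.9 and 62.6 TPM in homozygous libraries and at 187, 146 and 39.8 TPM in treated 1 to 3, high in treated 1 and 2 only. Polg, the mitochondrial DNA polymerase, was at 66.2, 95.3 and 57.9 TPM in homozygous and at 141, 128 and 154 TPM in treated libraries (log2 fold change 1.00, limma adjusted p = 0.0688). Lrpprc, which stabilises mitochondrial mRNAs, was at 63.4, 62.02 and 71.1 TPM and at 43.4, 44.7 and 44.98 TPM (log2 fold change -0.55, limma adjusted p = 0.121). Neither of these genes overlapped between the groups, and they lay on opposite sides. Ppargc1a, a coactivator of mitochondrial biogenesis, was at 127, 100.2 and 148 TPM and at 54.2, 50.7 and 86.04 TPM without overlap (log2 fold change -0.87, limma adjusted p = 0.111). Esrra, a nuclear receptor that works with it, was at 35.6, 45.98 and 33.5 TPM and at 68.0, 61.2 and 106 TPM, higher in every treated library (log2 fold change 1.10, limma adjusted p = 0.0697).

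The respiratory chain, whose core subunits this ribosome makes, held most of the falls in these lists. Of 13 mitochondrially encoded mRNAs, 3 fell and 13 had a log2 fold change under 0, with a median of -2.43. Their values ran from -3.89 for mt-Nd6 to -0.07 for mt-Co1. Of 68 nuclear respiratory chain and ATP synthase subunits, 11 fell and 0 rose, with a median of -0.48. Over all tested genes 0.965% fell and 3.44% rose. Only 1 of all tested genes was called lower without homozygous library 1, and 3 without homozygous library 3. Most of the falls in these lists were therefore lost in those fits. Ndufa5, a subunit of complex I, went from 298, 254 and 245 TPM to 33.6, 33.1 and 70.3 TPM (log2 fold change -2.42, limma adjusted p = 0.0186). Cox7b, a subunit of complex IV, went from 473, 430 and 456 TPM to 93.2, 118 and 159 TPM (log2 fold change -1.80, limma adjusted p = 0.0150). In both Ndufa5 and Cox7b treated 3 lay nearest the homozygous libraries. Of 76 cytosolic ribosomal proteins, 2 fell and 2 rose, with a median of -0.25. Of 12 genes of other mitochondrial functions and 13 genes of protein import and folding, 0 were called, with medians of -0.24 and -0.02. At an unadjusted limma p under 0.05 these lists had 3 and 2 lower genes and 1 and 1 higher. The shares over all tested genes were 7.92% lower and 18.8% higher. Differences between the lists were not tested.

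**Figure D4:**
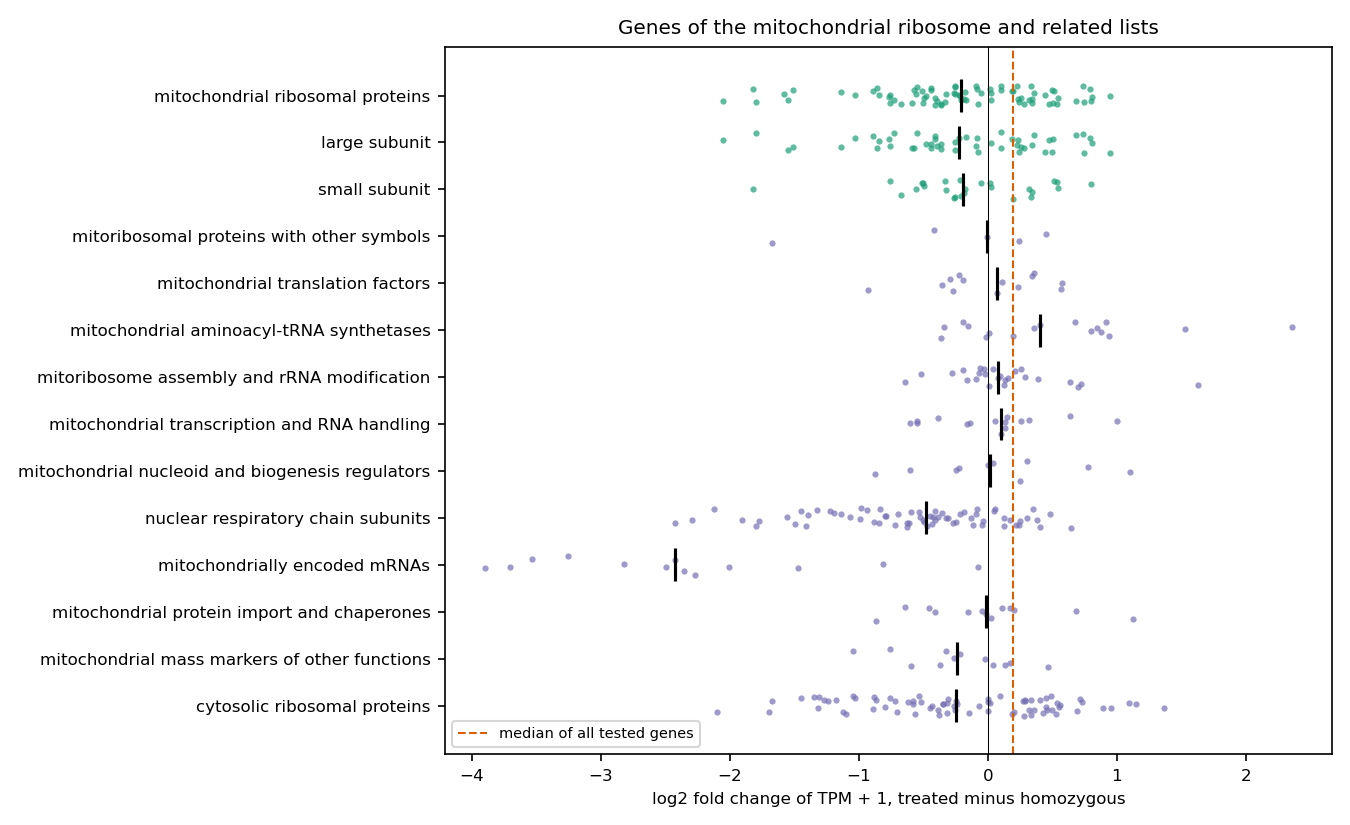
Log2 fold change of TPM + 1 (treated minus homozygous) for each gene of the mitochondrial ribosome (green) and of related lists (purple); black bars are list medians and the dashed line is the median of all tested genes at 0.20. The ribosomal protein genes spread on both sides of 0 with a median of -0.21. The mitochondrially encoded mRNAs have the lowest median, though mt-Co1 lies at -0.07.

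Against WT, only Mrps6 could be followed. It was the only one of the 78 members with a row in the first deposited table, which holds WT and homozygous libraries for a list of 1410 symbols chosen by a rule that the sources do not describe. Mrps6 is the counterpart of bacterial S6. It was at 57.3, 57.5 and 59.5 TPM in WT and at 80.5, 120.4 and 82.4 TPM in homozygous libraries, so that every homozygous library was higher. It rose by 0.67 on the log2 scale (SE 0.17, limma adjusted p of 0.0281), in a table where 17.9% of tested genes were called higher. Of 1348 tested genes in that list 692 were called in either direction, so a call there is not independent evidence. Leaving out any one WT library raised the adjusted p to 0.0672 to 0.0723. In the second table Mrps6 was at 78.1, 127 and 86.01 TPM in homozygous and at 78.4, 75.5 and 119 TPM in treated libraries, with overlap (log2 fold change 0.02, limma adjusted p = 0.977), and the sign of that value turned under 2 scaling alternatives.

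Mrps6 shares 306 identical bases of transcript with Gm49711, a protein-coding gene at 1.78 to 3.14 TPM in the homozygous and treated libraries. It also shares 159 identical bases with Slc5a3, a myo-inositol transporter gene at the same locus. Slc5a3 was at 115, 97.6 and 119 TPM in WT and at 205, 412 and 176 TPM in homozygous libraries of the first table. In the second table it was at 260.2, 534 and 227 TPM in homozygous and at 184, 172 and 357 TPM in treated libraries. Mrps6 and Slc5a3 both had their highest homozygous value in library 2 and their highest treated value in treated 3. Reads of the shared bases could not be told apart here.

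Many of these genes start beside a gene read in the opposite direction. Of the 69 members with a promoter entry, 23 (33.3%) had such a divergent start within 500 bases, against 16.5% of the tested genes with an entry. Mrpl46 and Mrps11 are divergent partners of each other, and their log2 fold changes were -0.41 and 0.54. Mrps11 was higher in all treated libraries, as given above. Mrpl46 was at 19.5, 15.2 and 16.3 TPM in homozygous and at 9.77, 6.38 and 19.1 TPM in treated libraries, with overlap (limma adjusted p = 0.551). Mrpl40 starts beside Hira, a histone chaperone gene, which was at 137, 162 and 110.2 TPM in treated 1 to 3 against a homozygous mean of 63.7 TPM (log2 fold change 1.00, limma adjusted p = 0.0511). Mrpl40 was thus at 0.248 TPM or less in treated 1 and 2 while its partner was above its homozygous mean in all treated libraries. Mrpl43 starts beside Twnk, the mitochondrial DNA helicase gene, and Mrps12 beside Sars2, the mitochondrial seryl-tRNA synthetase gene, with log2 fold changes of 0.06 and 0.40 (limma adjusted p = 0.918 and 0.585). Mrpl47 starts beside Ndufb5, a subunit of complex I, which fell by 0.94 on the log2 scale (limma adjusted p = 0.0490), while Mrpl47 was at 10.6, 13.6 and 21.5 TPM in homozygous and at 9.58, 8.99 and 13.3 TPM in treated libraries.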

How the data were processed

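RNA of 9 libraries was prepared with a stranded total RNA kit, per the labels' protocols. The deposited values were TPM in 2 tables, made with kallisto 0.51.0 and DESeq (no version given) on build GRCm39, per the submitters' processing notes. TPM keeps no depth, so depth is unknown and no count interval or floor is given. Library sums of the second table were 995747 to 996703 TPM.

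Rows of a repeated symbol were summed. Genes at 1 TPM or more in at least 3 libraries were tested, 17102 in the second and 1348 in the first table, with limma 3.58.1 in R 4.3.3 on log2(TPM + 1) with a mean-variance trend, two-sided, Benjamini-Hochberg adjusted at 0.05. Tests stayed within a table. p-values measure the spread between the samples of each fit. These were the labelled replicates, with treated 1 and 2 merged into 1 sample in the treated comparison. In simulations of the treated comparison on 17102 genes, 1% of log2 changes of 1 and 21% of log2 changes of 2 were recovered with 0 false calls among 22. For homozygous against WT on 1348 genes these were 80% and 97%, with 7 false calls among 184. Each comparison was simulated in a single run, with fewer changed genes than the 754 and 692 called in the reported fits. The recovery therefore does not give the power of those fits. Shared sequence was searched with blastn 2.17.0 in GENCODE M21 transcripts.

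The members, lists and the merging of treated 1 and 2 were chosen with earlier results of these data known. Named members were those called, the 5 largest falls and rises in log2 fold change, the 4 with the highest mean of each subunit, those nearest the threshold, and 14 fixed for their role; of other lists, up to 2 called genes per direction or the 2 highest. Members outside this rule (Mrpl41, Mrpl27, Mrpl53, Mrpl46, Mrpl43, Mrpl9 and Mrpl47) and the partner and overlapping genes were named after their values were seen. Alternatives covered the pseudocount, filter, scaling, trend, sample merging, replicate block and left-out libraries.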

Additional observations from a re-analysis of the deposited data

How the results depend on the processing

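The reported counts were 2 members lower and 0 higher, with a median log2 fold change of -0.21. Pseudocount 0.1, median-of-ratios scaling and TPM without mitochondrially encoded genes left 2 lower and 0 higher, and Mrpl33 and Mrpl42 were the genes called in each. The lower count was 0 with no filter on low values, without the mean-variance trend and without treated replicates 1 and 2. Leaving out 1 library gave 0 to 11 lower and 0 to 3 higher members, with 11 and 3 without treated replicate 3, where the lone treated sample is assumed to vary like the others. With treated 1, 2 and 3 as 3 samples, 8 were lower and 6 higher, and with the replicate block added 4 and 1. Over all genes the calls were 165 lower and 589 higher as reported, 7 and 127 with no filter, 1009 and 2554 with 3 treated samples, 358 and 1127 with the block, 73 and 406 with no trend, 42 and 180 with treated 3 alone, and 1 to 735 lower and 62 to 2249 higher with 1 library left out. Median-of-ratios scaling moved the median of all genes from 0.20 to 0.02 and the calls to 243 lower and 404 higher, and TPM without mitochondrially encoded genes moved them to 0.08 and to 208 and 445. The median of the members was -0.40 under the first and 0.027 with treated 3 alone. The cause of these shifts was not tested.

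The labels share replicate numbers, but same-numbered libraries did not deviate together (correlations of 0.0304, -0.146 and -0.117). Of 3 homozygous libraries 0 correlated best with the treated library of the same number. With treated 1 and 2 close to identical, this check cannot exclude that the numbers pair the libraries, and the reported fit used no pairing. In the first table the correlations were 0.0493, -0.14 and -0.0743, and Mrps6 kept its call with the replicate block (0.67, limma adjusted p = 0.0350). Its log2 fold change against WT was 0.48 to 0.77 with 1 library left out. Signs turned for a few members that did not pass, and ranges below are over fits with 1 library left out. Mrpl11 was at -0.16 under median-of-ratios scaling, -0.10 without mitochondrially encoded genes, -0.16 with 3 treated samples with or without the replicate block, and -0.37 to 0.22 over the range. Mrpl12 was at -0.0030 under median-of-ratios scaling, -0.11 with 3 treated samples with or without the replicate block, and -0.71 to 0.27. Mrps6 was at -0.18, -0.12 and, with 3 treated samples with or without the block, -0.089, and ranged from -0.30 to 0.22. With treated 3 alone Mrpl40 was at 0.029, Mrps12 at 1.29 and Mrps34 at 1.12. The range was -0.11 to 0.53 for Mrpl17, -1.95 to 0.062 for Mrps12 and -0.038 to 0.36 for Mrps18a.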
